A study of Mus musculus with 33 samples.

Results

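The S100 calcium-binding genes S100a8, S100a9, S100a4, S100a6, S100a10, S100a11 and S100a1, 7 of the 32285 genes in the count matrices, were followed across cell classes, tissues and biotin sorts. The members were taken from a fixed list of gene names and not from their values, and 10 other S100 genes of the matrices stand outside it. Mice received an injection that the labels call intracardiac or iia, and the title places the work in bone metastasis. Neither the injected cells nor the meaning of iia was given in the sources used here. A biotin-based niche tag named SAMENT was applied for about 10 hours, tissues were dissociated, and cells were sorted into biotin positive (tagged) and biotin negative (untagged) fractions. The intracardiac samples came from bone (femurs and tibias), brain, liver and lung, with 4 biotin negative and 4 biotin positive samples of each tissue, 32 in all. The iia samples came from bone alone, with 6 negative and 6 positive hashtag samples in 1 pooled library. All groups carried the injection and the substrate, and no group without either was analysed here. The labels give no genotype, strain, age or sex, and they do not say whether samples with different numbers came from different mice, so the p-values below measure the spread between these samples.

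S100 proteins are small EF-hand proteins that change shape on binding calcium and then engage partner proteins. S100A8 and S100A9 pair as calprotectin, the most abundant cytosolic protein complex of neutrophils, which sequesters metal ions and, once released, is a ligand of TLR4 and RAGE. S100A10 works with annexin A2 at the plasma membrane, S100A11 binds annexin A1, S100A6 binds CacyBP, S100A4 binds non-muscle myosin and is widely known from motile cells and metastasis, and S100A1 is best known from muscle, where it acts on calcium release.

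All 7 genes lie on mouse chromosome 3 in the GENCODE annotation of GRCm38, in an order along the chromosome of S100a1, S100a4, S100a6, S100a8, S100a9, S100a11 and S100a10. S100a8 spans chr3:90668978-90670035 on the plus strand and S100a9 spans chr3:90692632-90695721 on the minus strand, with 22596 bases between them. S100a4 (chr3:90603771-90606045, plus strand) and S100a6 (chr3:90612882-90624181, plus strand) are neighbours 6836 bases apart, and 2824766 bases separate S100a9 from S100a11. Bases upstream of the RefSeq start (GRCm38.p6) were found for 6 of the 7 members. Those of S100a8 and S100a9 are shown because both genes moved together in nearly every result below. That of S100a4 is shown because it is a near neighbour that was almost absent from the neutrophil stages. Capitals mark searched motifs, and each line runs 5′ to 3′ on the gene's own strand.

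S100a8, chr3:90668821-90668977, plus strand: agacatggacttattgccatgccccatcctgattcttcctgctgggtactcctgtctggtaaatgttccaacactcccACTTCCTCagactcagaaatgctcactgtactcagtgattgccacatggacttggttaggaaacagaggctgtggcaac

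S100a8 around its TATA box, chr3:90669029-90669058, plus strand: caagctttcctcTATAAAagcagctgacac

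S100a9, chr3:90695722-90695971, minus strand: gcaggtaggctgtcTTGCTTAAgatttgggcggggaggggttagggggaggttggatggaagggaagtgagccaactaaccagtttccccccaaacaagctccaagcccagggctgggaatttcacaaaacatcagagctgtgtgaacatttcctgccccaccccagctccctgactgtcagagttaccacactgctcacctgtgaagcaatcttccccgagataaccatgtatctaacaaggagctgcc

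S100a4, chr3:90603520-90603769, plus strand: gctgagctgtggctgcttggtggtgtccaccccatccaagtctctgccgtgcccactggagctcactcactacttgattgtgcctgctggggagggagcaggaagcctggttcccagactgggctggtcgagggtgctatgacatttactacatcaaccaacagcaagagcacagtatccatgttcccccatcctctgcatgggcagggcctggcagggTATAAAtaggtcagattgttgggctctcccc

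The motifs searched in the 250 bases upstream were TATAAA, the PU.1 consensus GAGGAAGT, the C/EBP consensus TTGCNNAA and the STAT consensus TTCNNNGAA, on both strands. The RefSeq start of S100a8 lies downstream of the GENCODE start, so that 93 bases of its window are inside the GENCODE gene, the printed TATA stretch included. S100a8 holds TATAAA from 30 to 25 bases upstream of its RefSeq start, and a PU.1 match on the reverse strand (printed as ACTTCCTC) from 172 to 165 bases upstream. S100a4 holds TATAAA from 31 to 26 bases upstream, and S100a9 holds a C/EBP match, TTGCTTAA, from 236 to 229 bases upstream. Of 32851 upstream windows of the same length, 12.4% hold TATAAA, 2.44% the PU.1 consensus, 9.56% the C/EBP consensus and 7.02% the STAT consensus, and 1.99% have TATAAA starting 20 to 40 bases upstream on the gene's strand. The matches describe these letters only.

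After filtering, 55366 intracardiac cells (94 to 3505 per sample) and 22362 iia cells (249 to 3480 per sample) remained. The UMIs per sample ranged from 482617 to 44834665 in the intracardiac and from 2149784 to 27903856 in the iia samples. Levels are given as CPM (counts in each 1000000) of the summed UMIs of a class in a sample with at least 10 cells. The intracardiac libraries used a 3′ and the iia libraries a 5′ protocol, so levels were not set against each other across them. Classes were named from marker lists that hold no S100 gene, and S100 genes took no part in the clustering. Class names stand for cells that are like that type by its markers. The tissue labels fit the resident cells found: microglia made up 18.7% ± 19.9 (SD, n = 4) of tagged brain cells and 0 cells in the other tissues, and alveolar macrophages made up 43.0% ± 26.9 (SD, n = 4) of tagged lung cells. Differences between classes are descriptions, since classes were made from the same cells.

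S100a8 and S100a9 were highest in immature neutrophils, the Ltf, Ngp and Camp expressing stage. S100a8 reached 195196 ± 27528 CPM there (mean ± SD, n = 18 intracardiac samples), so that about 1 UMI in 5 came from this gene. S100a9 reached 209170 ± 8007 CPM in the same samples. Granulocyte precursors, marked by Elane and Mpo, already held 52937 ± 16315 CPM of S100a8 and 54108 ± 15093 CPM of S100a9 (n = 12). Classical monocytes held 11060 ± 5869 CPM of S100a8 and 5106 ± 2571 CPM of S100a9 (n = 26). Nonclassical monocytes averaged 42606 ± 35371 CPM of S100a8 and 46134 ± 37030 CPM of S100a9 (n = 22), with a range over samples from 1281 to 121760 CPM of S100a8. In samples with both, granulocyte precursors exceeded them in S100a9 in 2 of 9, so these neighbours in the order did not separate. The median cell gave another order of the monocytes for S100a8. For samples numbered 1 to 4 it held 776, 1550, 2555 and 1355 CPM in nonclassical monocytes (medians over samples). In classical monocytes it held 977, 4239, 3624 and 2874 CPM. S100a9 of the median cell was higher in nonclassical monocytes for each number, with 1170 against 522 CPM for number 1. Levels outside the neutrophil stages are set beside those of lymphocytes at the end.

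**Figure D1:**
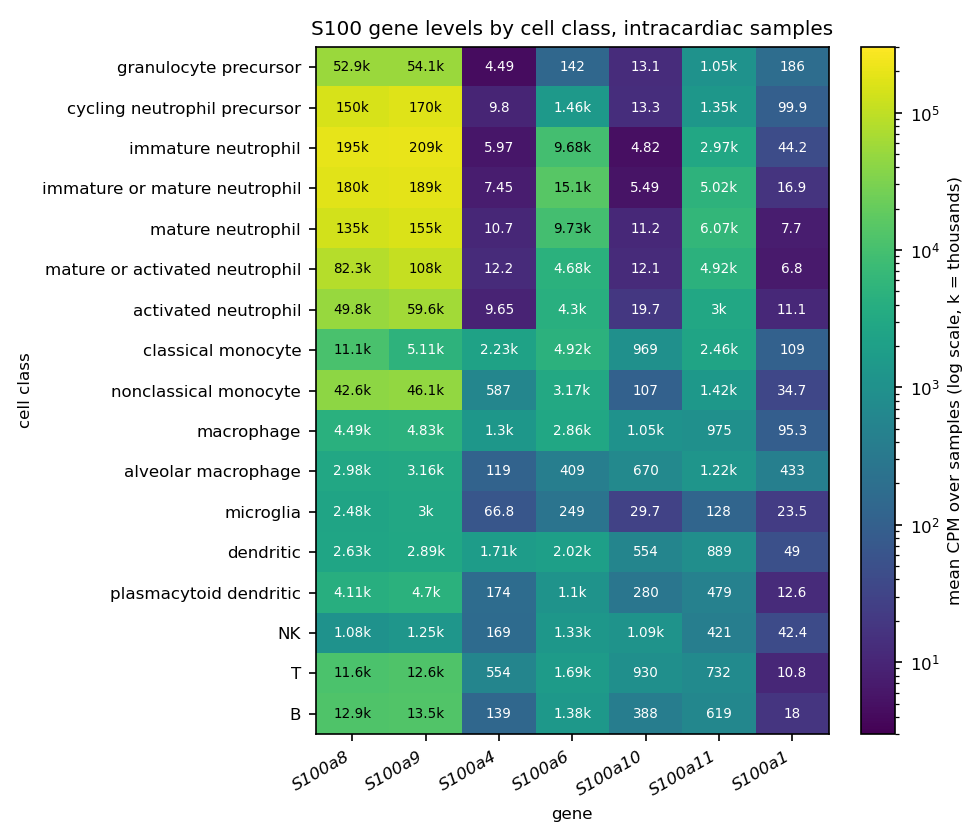
Mean CPM over intracardiac samples (colour, log scale, k for 1000) of the 7 genes (columns) in each cell class (rows). S100a8 and S100a9 peak at 195196 and 209170 CPM in immature neutrophils, S100a4 peaks at 2232 CPM in classical monocytes, and S100a1 peaks at 433 CPM in alveolar macrophages.

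Within samples, S100a8 rose from precursor to immature neutrophils in 11 of 11 samples, by 1.89 on the log2 scale on average, and S100a9 by 1.97. Both were lower in mature than in immature neutrophils of the same sample in 18 of 18 samples. The mean difference was -0.56 ± 0.18 (log2, SD) for S100a8 and -0.48 ± 0.18 for S100a9. The next cluster, led by Il1b and Acod1 and classed as mature or activated, was lower again in 28 of 29 samples for each gene, at 82283 ± 20318 CPM of S100a8 (n = 29). Activated neutrophils, led by Rsad2, Cxcl3 and Ccl3, were at 49804 ± 26892 CPM of S100a8 and 59642 ± 28854 CPM of S100a9 (n = 6). The transcripts thus peaked at the granule-forming stage and stepped down after it.

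S100a6 and S100a11 took other courses along the same stages. S100a6 was nearly absent from granulocyte precursors, at 142 ± 84 CPM (n = 12), and was 9683 ± 2385 CPM in immature neutrophils (n = 18), a within-sample step of 6.06 ± 0.51 (log2, SD, 11 of 11 samples). It peaked at 15098 ± 2524 CPM (n = 22) in the cluster between immature and mature neutrophils. In mature neutrophils it was 9726 ± 1469 CPM (n = 31), and the immature and mature levels could not be ordered, with 9 of 18 samples higher in each direction. S100a11 peaked later, at 6067 ± 366 CPM in mature neutrophils (n = 31) after 2970 ± 343 CPM in immature ones, a step of 1.03 ± 0.13 (log2, SD) that was upward in 18 of 18 samples. It was lower again in activated neutrophils, at 3000 ± 695 CPM (n = 6).

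S100a1 ran the opposite way from S100a11. It was 186 ± 24 CPM in granulocyte precursors (n = 12), 44.2 ± 18.2 CPM in immature neutrophils (n = 18) and 7.70 ± 5.57 CPM in mature ones (n = 31), and it was lower in mature than in immature neutrophils in 18 of 18 samples. The members therefore peaked at 4 different stages: S100a1 in precursors, S100a8 and S100a9 in immature cells, S100a6 between immature and mature cells, and S100a11 in mature cells. The iia bone samples showed the same directions from immature to mature cells for S100a8 (-0.32 on the log2 scale), S100a9 (-0.29), S100a11 (+1.07, 12 of 12 samples) and S100a1 (-0.69). S100a6 differed in that its iia level was higher in mature cells in 12 of 12 samples, by 1.24. Because S100a8 and S100a9 take up so many of a neutrophil's UMIs, their own share moves the CPM of every other gene. With both left out of the denominator the immature to mature step was -0.83 for S100a8, -0.75 for S100a9 and 0.77 for S100a11, with the directions as before.

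**Figure D2:**
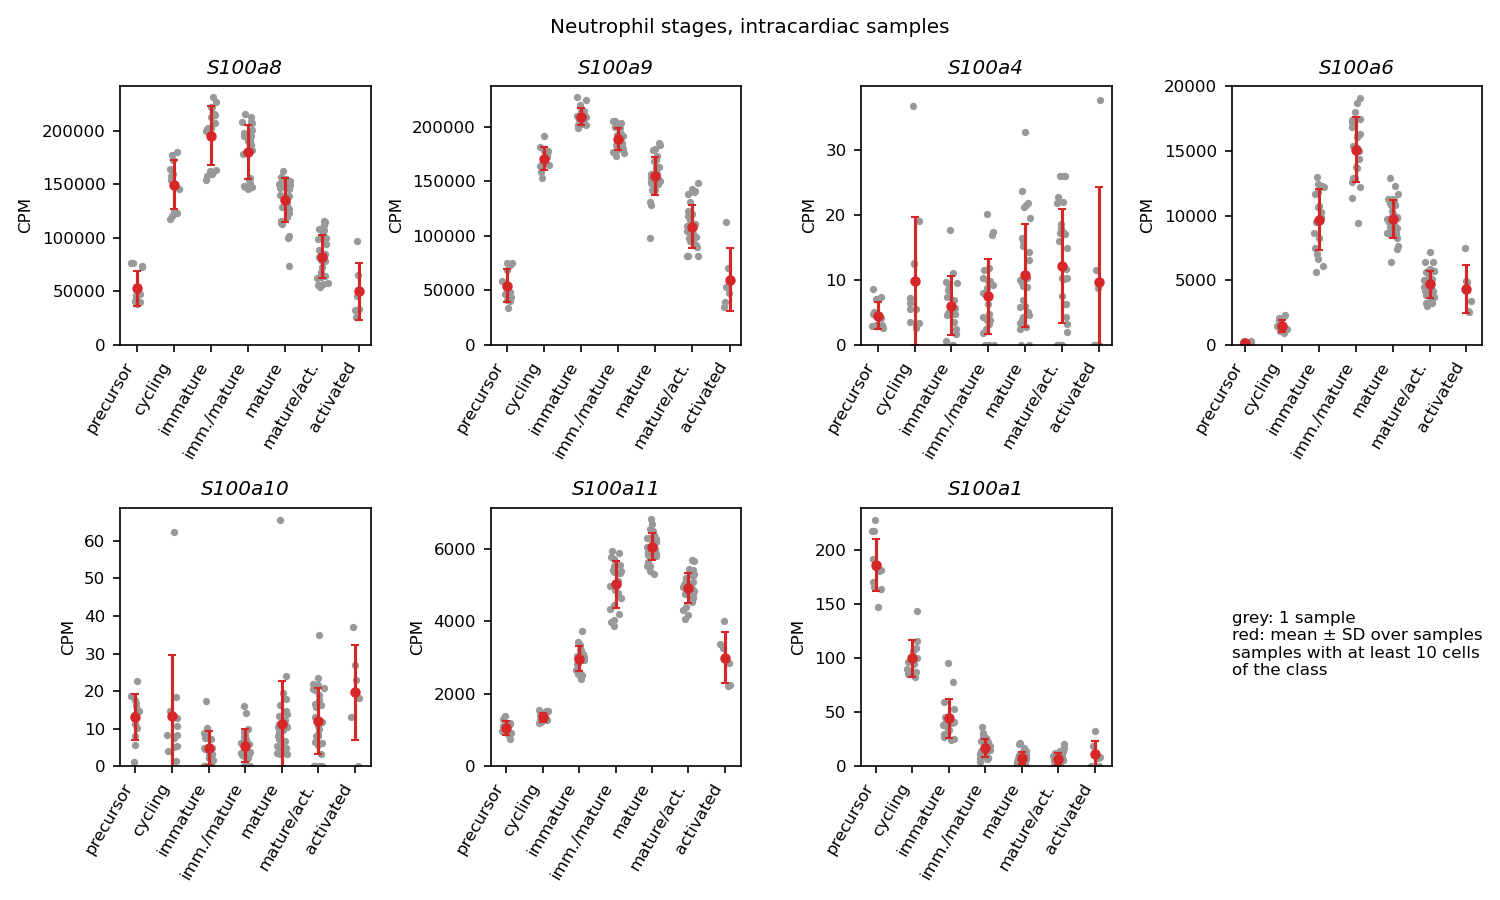
CPM (linear axes from 0) of each gene in 7 neutrophil stages of the intracardiac samples, from granulocyte precursors to activated neutrophils; grey points are samples and red marks are the mean ± SD. S100a8 and S100a9 peak in immature, S100a6 in immature to mature and S100a11 in mature neutrophils, while S100a1 is highest in precursors at 186 CPM.

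S100a4 and S100a10 were genes of monocytes, macrophages and lymphocytes and not of neutrophils. S100a4 was 2232 ± 349 CPM in classical monocytes (n = 26), 1711 ± 450 CPM in dendritic cells led by Cd209a (n = 24) and 1304 ± 903 CPM in macrophages (n = 29). Classical monocytes exceeded dendritic cells in 18 of 23 samples with both. Every neutrophil stage lay between 4.49 and 12.2 CPM of S100a4 on average. S100a10 was 1092 ± 345 CPM in NK cells (n = 17), 1048 ± 755 CPM in macrophages, 969 ± 195 CPM in classical monocytes and 930 ± 292 CPM in T cells (n = 29). These 4 neighbours in the order did not separate: NK cells were above macrophages in 7 of 15 samples, macrophages above monocytes in 14 of 24, and monocytes above T cells in 14 of 25. Neutrophil stages held 4.82 to 19.7 CPM of S100a10.

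The step from classical to nonclassical monocytes, the Ace and Treml4 expressing patrolling cells, was large for both. S100a10 was lower in nonclassical monocytes in 21 of 21 samples, by -3.08 on the log2 scale. S100a4 was lower in 21 of 21 samples as well, by -1.99. The nonclassical sums held, on average, far more S100a8 than the median nonclassical cell, as given above. The part of cells rich in S100a8 in these 2 steps was not tested. The same steps in iia bone were -4.10 for S100a10 and -1.42 for S100a4, over 5 samples.

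S100a4 and S100a10 also divided the macrophage and T cell clusters. Macrophages of the Arg1, Pf4 and Spp1 cluster held 2116 CPM of S100a4 and 1771 CPM of S100a10. The cluster led by Cd5l and Clec4f, which are Kupffer cell genes, held 112 CPM of S100a4 and 60.4 CPM of S100a10. Clusters led by Vcam1 and Spic and by Ccl12 and Ptgds lay between them for S100a10, at 188 and 266 CPM. Among T cells, the cluster led by Icos and Ctla4 held 1702 CPM of S100a4 against 20 CPM in the naive-type cluster led by Lef1 and Dapl1. S100a10 was 1847 CPM against 302 CPM in the same clusters.

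S100a1 was highest in alveolar macrophages, at 433 ± 180 CPM (n = 6). Endothelial cells held 198 ± 67 CPM (n = 12), classical monocytes 109 ± 32 CPM (n = 26) and other macrophages 95.3 ± 39.2 CPM (n = 29). T cells held 10.8 ± 10.8 CPM. Against classical monocytes of the same sample, alveolar macrophages were higher in S100a1 in 6 of 6 samples, by 2.03 on the log2 scale. They were lower in S100a4 by -4.77 and in S100a6 by -3.86, so that 3 members separated these myeloid classes in both directions.

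Likeness of pattern was measured by the Pearson correlation of log2(CPM + 10) over 306 class-by-sample sums and 5170 genes, as a description with no test, since the sums share libraries. S100a8 was most like S100a9 (r = 0.99), Lcn2 (0.97) and Wfdc21 (0.96). S100a9 was most like S100a8, Lcn2 (0.95) and Mrgpra2b (0.94). S100a4 was most like Ccr2 (0.93), the receptor of inflammatory monocytes, followed by Crip1 (0.90) and Ms4a6b (0.89). S100a10 was most like Crip1 (0.93), Ahnak (0.91), a scaffold that binds the annexin A2 and S100A10 complex, and Tpt1 (0.90). S100a6 was most like Gm14548 (0.82), Mmp8 (0.82) and its fellow member S100a11 (0.81). S100a11 was most like Tarm1 (0.89), Pygl (0.89) and Msrb1 (0.88), and S100a1 was most like Dbi (0.79), Tmem256 (0.79) and Tnfsf13 (0.76).

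Tagged and untagged cells were compared to ask how the niche next to the labelled cells differs. Over all kept cells of a sample, 2 members passed in lung and 1 in brain by edgeR's quasi-likelihood test with Benjamini-Hochberg adjustment over all genes. In such sums, fewer cells of a type and less RNA per cell cannot be told apart. The share of all tested genes called was 18.3% in lung, 3.06% in brain, 0% in bone and 0% in liver. In bone and liver 0 genes were called by edgeR, with 982 and 1571 at an unadjusted p under 0.05. In DESeq2 the calls were 53 and 431 genes.

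S100a1 stood out in lung. It was 26.9, 49.5, 77.9 and 38.6 CPM in the 4 untagged and 206, 320, 335 and 173 CPM in the 4 tagged samples, groups that did not overlap. The difference was +2.19 ± 0.35 (log2, SE) with an adjusted p of 0.0050 by edgeR. The lung effect also differed from the mean effect of the other 3 tissues, by +2.11 ± 0.40 (interaction term of edgeR, adjusted p = 0.0027, with 2.54% of all genes called). For the corresponding differences of bone, brain and liver, 0%, 0.301% and 0% of genes were called and no member was among them. Alveolar macrophages, the class with the highest S100a1 level, moved with it, from a mean of 0.264% of untagged to 43.0% of tagged lung cells, and their part in this sum was not tested.

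S100a4 was lower in tagged cells of both organs. In brain it was 698, 664, 757 and 364 CPM untagged and 195, 133, 312 and 86.1 CPM tagged. The brain difference was -2.04 ± 0.40 (log2, SE, adjusted p = 0.034 by edgeR), and the groups did not overlap. In lung it was 859, 739, 1059 and 803 CPM untagged and 523, 267, 236 and 712 CPM tagged, a difference of -1.22 ± 0.35 (adjusted p = 0.042 by edgeR). Both calls were near the threshold: leaving out 1 sample ended the brain call for 6 of the 8 samples (all but tagged replicates 1 and 3) and the lung call for 7 of the 8 (all but tagged replicate 4). Classical monocytes, the class highest in S100a4, took a smaller share alongside, with means of 12.9% of untagged and 1.80% of tagged brain cells and of 14.8% and 2.61% of lung cells, and the part of these shares in the result was not tested. With the sample number as a block, S100a10 was also called lower in tagged brain cells (-1.28, adjusted p = 0.049 by edgeR).

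Within the macrophage class, which here holds alveolar macrophages and microglia too, 5 members passed in lung, where 12.4% of all genes were called. S100a6 was 3447, 3557, 4582 and 5228 CPM in untagged and 999, 701, 679 and 1733 CPM in tagged lung macrophages, a difference of -2.31 ± 0.37 (log2, SE, adjusted p = 0.0080 by edgeR). S100a4 was 1556, 1284, 1737 and 1717 CPM untagged and 511, 263, 156 and 1111 CPM tagged (-1.88 ± 0.53, adjusted p = 0.044 by edgeR). S100a10 differed by -1.35 ± 0.30 (adjusted p = 0.019) and S100a11 by -1.01 ± 0.22 (adjusted p = 0.020), both by edgeR. S100a1 went the other way, from 92.6, 158, 142 and 99.9 CPM to 262, 337, 646 and 357 CPM (+1.44 ± 0.28, adjusted p = 0.013 by edgeR). For each of the 5 genes the 4 tagged samples lay on 1 side of the 4 untagged ones. These genes had passed the test on the same samples, so this adds no further support. The share of all genes without overlap was not computed, here or for the other comparisons.

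The cells behind these sums differed. The Arg1, Pf4 and Spp1 cluster made up 77.8% of untagged lung macrophages, and the main alveolar macrophage cluster made up 79.6% of tagged ones. Without alveolar macrophages and microglia, an alternative added after seeing the data, no member passed and edgeR called 1 gene. S100a4 then differed by -0.36 and S100a6 by -0.83 (adjusted p = 0.56 and 0.17 by edgeR), and S100a11 by -1.18 (adjusted p = 0.064). Left-out samples mattered as well: S100a4 lost its call without 6 of the 8 samples (all but untagged replicate 2 and tagged replicate 4) and S100a10 without 5 (untagged replicates 1, 3 and 4 and tagged replicates 2 and 3). S100a11 lost it without untagged replicate 4 or tagged replicate 2, and S100a1 without untagged replicate 4. Of 26 receptors and partners tested in these macrophages 1 was higher and 4 lower in tagged cells, with a median difference of -0.405 (log2) beside 0.02 over all genes.

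Brain macrophages showed lower values of the same 4 genes in tagged cells. S100a4 was 2567, 449, 463 and 599 CPM untagged and 269, 48.2, 190 and 23.6 CPM tagged (-3.08 ± 0.82, adjusted p = 0.13 by edgeR). S100a6 was 1488, 1003, 1255 and 1362 CPM untagged and 718, 260, 517 and 173 CPM tagged (-1.77 ± 0.39, adjusted p = 0.082 by edgeR). No member passed, and 0.0164% of all genes were called (345 of 6081 genes with the block given next). The brain samples were taken as paired by number, with the limits described with the processing. With that block S100a4 (-3.24, adjusted p = 0.0058), S100a6 (-1.95, adjusted p = 0.0069), S100a10 (-1.90, adjusted p = 0.020) and S100a11 (-1.62, adjusted p = 0.020) all passed in edgeR. Microglia moved with them, from 11.2% of untagged to 32.3% of tagged brain macrophages, and their part was not tested. In bone and liver macrophages 0% of genes were called by edgeR in each, with 43 and 1005 genes at an unadjusted p under 0.05, and no member passed. Few untagged bone macrophages were found: that fit held 6 samples with enough cells, 4 of them tagged, and tested 1262 genes. The liver fit held 7 samples. The lack of calls in bone therefore says little about a difference there. The tagged bone samples were far apart, with S100a4 at 1181, 1866, 38.6 and 52.9 CPM, the last of these from 11 cells.

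**Figure D3:**
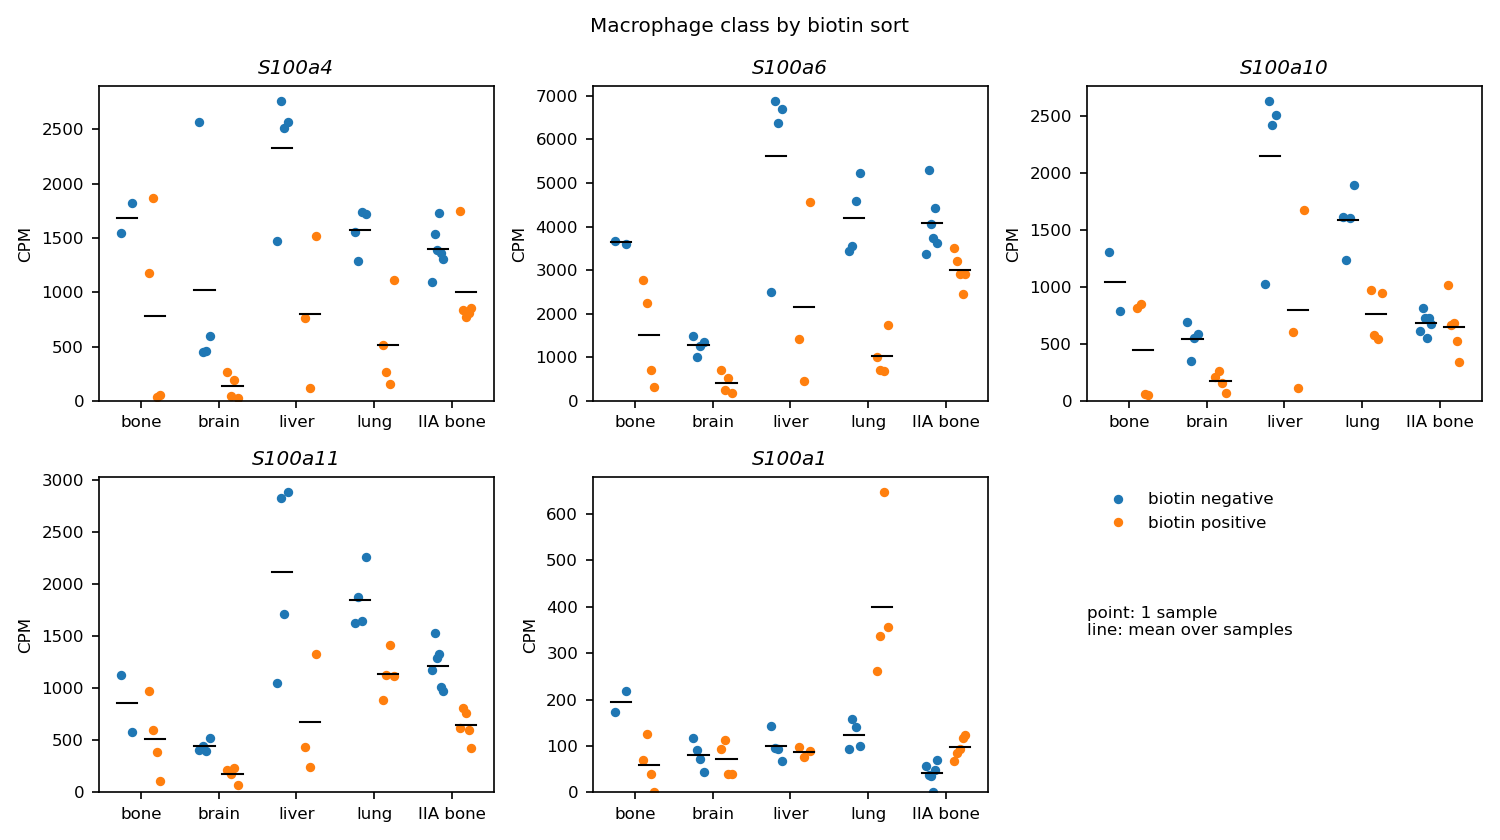
CPM (linear axes from 0) of 5 members in the macrophage class of each tissue, untagged (blue) and tagged (orange); points are samples and lines are means. In lung the tagged samples of S100a6 lie between 679 and 1733 CPM, all below the untagged ones, and those of S100a1 between 262 and 646 CPM, all above them.

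In neutrophils no intracardiac member passed between the sorts. S100a8 in bone neutrophils was 138591, 217582, 207009 and 185815 CPM untagged and 144695, 209126, 197000 and 176751 CPM tagged, nearly the same values number by number. The edgeR difference of S100a8 in bone was -0.11 ± 0.24, that in brain -0.37 ± 0.23, that in liver -0.31 ± 0.24 and that in lung -0.11 ± 0.29. The share of genes called was 0% in neutrophils of bone, brain, liver and lung, with 77, 48, 74 and 52 genes at an unadjusted p under 0.05. It was also 0% in mature neutrophils of these 4 tissues (93, 67, 71 and 53 genes at an unadjusted p under 0.05). With the block, tagged mature neutrophils of brain were slightly lower in S100a8 (-0.26, adjusted p = 2.3e-07), S100a9 (-0.20, adjusted p = 1.2e-05) and S100a6 (-0.38, adjusted p = 1.1e-05) by edgeR. That block called 53 of 3547 genes. The clusters shifted alongside: the Prok2 and Retnlg cluster made up 62.9% of untagged and 42.8% of tagged mature brain neutrophils, and the Il1b and Acod1 cluster 28.8% and 43.9%. Their part in these differences was not tested. Tests of whether the neutrophil effect differed between tissues called 0% of genes in each of the 4, with 61 to 114 genes at an unadjusted p under 0.05.

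Classical monocytes did not separate the sorts either. The share of genes called by edgeR was 0% in bone, liver and lung, with 283, 143 and 118 genes at an unadjusted p under 0.05, and brain had too few tagged samples for a fit. S100a4 differed by -0.07 ± 0.15 in bone, -0.29 ± 0.26 in liver and -0.15 ± 0.17 in lung (log2, SE), and none of these differences was called. Lymphocytes gave 0% in bone, brain, liver and lung (256, 232, 249 and 223 genes at an unadjusted p under 0.05). With the block, S100a4 was lower in tagged liver lymphocytes (-1.10, adjusted p = 0.0042 by edgeR). Without the block that difference was -0.95. With 1 sample left out it ranged from -2.13 (without tagged replicate 1) to -0.66. The main B cell cluster made up 57.5% of untagged and 71.6% of tagged liver lymphocytes and the Icos and Ctla4 T cell cluster 7.16% and 3.81%, and their part was not tested.

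Over all cells of the iia bone samples, 5 members passed and 50.2% of all tested genes were called, with 6 samples in each sort. S100a8 was between 84307 and 102564 CPM in the 6 untagged samples (median 94912) and between 17277 and 35115 CPM in the 6 tagged ones (median 26376). The edgeR difference was -2.12 ± 0.17 (adjusted p = 3.8e-06), and that of S100a9 was -2.12 ± 0.18 (adjusted p = 5.1e-06). S100a11 (-1.11 ± 0.13, adjusted p = 3.9e-05) and S100a6 (-1.26 ± 0.35, adjusted p = 0.0099) were lower in tagged cells as well. S100a1 was higher, by 0.82 ± 0.14 (adjusted p = 0.00043). Neutrophils moved with the first 4, from 53.9% ± 6.0 of untagged to 26.8% ± 4.8 of tagged cells (SD, n = 6 each), and granulocyte precursors, where S100a1 was high, moved from 1.40% ± 0.64 to 20.8% ± 16.7. The part of these shares in the sums was not tested.

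The genes listed with the members were counted in iia bone against the 50.2% of all genes called there. Of 8 other neutrophil genes all 8 were lower in tagged cells by edgeR, among them Ltf (-2.52), Ifitm6 (-2.49) and Lcn2 (-2.25). Of 27 receptors and binding partners tested, 5 were higher and 13 lower, with the NADPH oxidase subunit Cybb at -1.79 and the S100A11 partner Anxa1 at -1.78. Of 11 transcription factors, 2 were higher and 4 lower, a share near that of all genes, including Cebpa at +1.00 and Klf5 at -1.49. The median differences were -2.11 for the neutrophil genes, -0.69 for the receptors and partners and -0.33 for the transcription factors, beside 0.08 over all genes tested (log2). Of the other S100 genes listed, 1 was tested, S100a13, and it was lower, at -0.68 ± 0.11 (adjusted p = 0.00026 by edgeR).

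Within iia neutrophils 9.83% of genes were called but no member was. S100a8 was lower in tagged neutrophils by -0.39 ± 0.12 (log2, SE) with an adjusted p of 0.051 by edgeR, and S100a9 by -0.33 ± 0.11 with an adjusted p of 0.077. The stages shifted as well: the cluster led by Acod1, Cxcl2 and Il1b made up 1.86% of untagged and 38.8% of tagged neutrophils, and its part in the S100a8 values was not tested. In these cells Cd14, the co-receptor of TLR4, was higher by 3.49 ± 0.66 and Atf3 by 4.33 ± 0.63 (adjusted p = 0.0029 and 0.00058 by edgeR). In mature iia neutrophils 10.6% of genes were called, again with no member. In iia monocytes 0.0703% were called, no member among them. In iia lymphocytes 0% were called by edgeR, with 348 genes at an unadjusted p under 0.05.

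In iia macrophages, where 25.1% of genes were called, S100a11 was lower and S100a1 higher in tagged cells. S100a11 was 1174, 1529, 1296, 1330, 1014 and 971 CPM untagged and 620, 812, 764, 601 and 428 CPM in the 5 tagged samples with enough cells (-0.88 ± 0.18, adjusted p = 0.0024 by edgeR). S100a1 differed by +1.03 ± 0.26 (adjusted p = 0.0082 by edgeR). The groups did not overlap for S100a11. A single Arg1, Pf4 and Hmox1 cluster held 100% of the untagged and 90.4% of the tagged iia macrophages. Of 25 receptors and partners tested, 5 rose and 5 fell, led by Cd36 at +3.58 ± 0.35 (adjusted p = 4.7e-06 by edgeR).

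Untagged cells of bone were next set against those of the other tissues, in comparisons that share the 4 untagged bone samples. In neutrophils 4 members were higher in bone than in lung, where 33.8% of all genes were called. S100a8 was 138591, 217582, 207009 and 185815 CPM in bone and 80336, 121676, 133582 and 105809 CPM in lung (+0.89 ± 0.23, adjusted p = 0.0079 by edgeR). S100a9 was 179248, 199861, 211915 and 184961 CPM in bone and 117935, 134409, 157147 and 124301 CPM in lung (+0.65 ± 0.19, adjusted p = 0.016 by edgeR), and without untagged bone replicate 3 its adjusted p was 0.053. For both genes the 4 bone samples lay above the 4 lung samples. S100a6 differed by +0.89 ± 0.23 (adjusted p = 0.0079), and S100a1 by +1.95 ± 0.32 (adjusted p = 0.00066), both by edgeR. Of the 8 other neutrophil genes 5 were higher in bone, among them Ngp (+3.45) and Lcn2 (+1.67), with a median difference of +1.88 beside -0.0044 over all genes tested (log2). Of 26 receptors and partners 9 were higher and 5 lower, with Cd14 at -3.18, and of 10 transcription factors 2 were higher and 5 lower, with Atf3 at -4.06 and Cebpb at -2.22.

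The stages differed between these tissues. Immature neutrophils and the cluster next to them made up 35.9% and 31.1% of bone neutrophils, against 0.606% and 1.72% of those in lung, where the mature or activated cluster made up 60.3%. Among mature and activated neutrophils alone no member passed. There S100a8 differed by +0.15 ± 0.29 between bone and lung (log2, SE, adjusted p = 0.87 by edgeR) and S100a6 by +0.32 ± 0.24 (adjusted p = 0.55). The share of genes called for mature neutrophils was 4.44% against lung, 1.16% against liver and 0.196% against brain. Atf3, at -2.83 ± 0.49, and Cebpb, at -1.26 ± 0.22, were lower in mature neutrophils of bone than of lung (adjusted p = 0.0036 and 0.0039 by edgeR). This class was not matched in its clusters. The Igfbp6 and Csf3r cluster made up 68.5% of it in untagged bone and 1.71% in untagged lung. The Il1b and Acod1 cluster made up 6.5% and 61.7%. The part of these clusters in the values of Atf3, Cebpb and the members was not tested.

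Between bone and liver neutrophils 6.8% of genes were called, and between bone and brain neutrophils 0.173%, with no member in either. Immature neutrophils and the cluster next to them made up 6.60% and 6.52% of liver neutrophils, and the Il1b and Acod1 cluster 45.6% against 2.15% in bone. With the number as a block, bone exceeded liver in S100a8 (+0.53, adjusted p = 0.026), S100a6 (+0.49, adjusted p = 0.033) and S100a1 (+0.73, adjusted p = 0.049) and was lower in S100a4 (-0.87, adjusted p = 0.023) by edgeR, and the part of these stages was not tested. With that block 2111 of the 8103 genes tested were called. The block also added S100a4 (-0.82, adjusted p = 0.015) and S100a10 (-0.82, adjusted p = 0.023) as lower in bone than in lung neutrophils, where it called 3896 of 8103 genes. Both genes were near the floor in neutrophils, at 9.83 CPM of S100a4 and 9.01 CPM of S100a10 (means over 32 intracardiac samples). Lymphocytes of these samples held 327 and 668 CPM. The part of free RNA or stray cells in these low values was not tested. S100a4 passed with the block in mature neutrophils of bone against liver (-1.09, adjusted p = 0.039 by edgeR), where the block called 375 of 6646 genes. There the Igfbp6 and Csf3r cluster made up 68.5% in bone and 5.30% in liver and the Il1b and Acod1 cluster 6.5% and 52.5%, which was not tested as a part of the difference. Without the block it was -1.11, and -0.58 without bone replicate 4. In monocytes the called shares were 0%, 0.0217% and 0.336% against brain, liver and lung, and S100a4 differed by at most 0.22 in size (bone minus liver, -0.22 ± 0.15, log2, SE). S100a4 in untagged monocytes lay between 1795 and 2897 CPM across the 16 samples of 4 tissues.

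The samples numbered 1 in the labels stood apart in several members. In immature neutrophils S100a8 was 153583 to 162982 CPM in the samples numbered 1, against 215130 to 231241 in those numbered 2, 212501 to 221856 in those numbered 3 and 200007 to 214932 in those numbered 4. In classical monocytes S100a11 was 1153 to 1450 CPM in samples numbered 1 and 2383 to 3649 CPM in all others. Monocyte S100a6 was at most 4025 CPM in number 1 and at least 4530 CPM elsewhere. These ranges did not overlap between number 1 and the others, and each number holds samples of both sorts. The number closes the sample titles, and the labels do not say whether it marks an injection, a mouse or a shared library. Samples with the same number shared 0 cell barcodes over 112 sample pairs. Samples with different numbers shared 341 over 384 pairs, and 188 of these pairs shared at least 1. Whether samples of 1 number came from 1 shared library was not tested beyond these counts.

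S100a8 and S100a9 in lymphocytes, which are not known to transcribe them, were measured as a check on free RNA in the droplets. A median lymphocyte (T, B or NK) held 468 to 618 CPM of S100a8 in the samples numbered 1, 954 to 2179 CPM in those numbered 2, 1635 to 2151 CPM in those numbered 3 and 748 to 1035 CPM in those numbered 4. The sample number held 92.5% of the sum of squares of the log2 medians over 30 samples, the tissue 3.03% and the sort 0.307%. For S100a9 these shares were 92.0%, 3.09% and 0.303%. Neutrophils made up 16.3% to 34.7% of the cells in the samples numbered 1, 2.96% to 64.3% in those numbered 2, 4.50% to 49.2% in those numbered 3 and 27.1% to 68.1% in those numbered 4. Over all cells of numbers 1 to 4 they made up 22.4%, 37.4%, 26.1% and 56.4%. The lymphocyte medians of S100a8 were 566, 1466, 1892 and 858 CPM (medians over samples). The 2 did not run in the same order, and number 4 had the most neutrophils. The source of the signal was not tested. The lowest lymphocyte level among the samples numbered 2 (954 CPM) was in tagged brain, which had the fewest neutrophils, and the highest (2179 CPM) was in tagged liver, with 9.46% neutrophils. After thinning each cell to 500 UMIs, 47.8% of lymphocytes had an S100a8 and 52.8% an S100a9 UMI (means over samples).

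Other classes were set beside this level by the median over their cells, in samples with at least 20 cells of both. Relative to lymphocytes of the same sample, the median ratio of S100a8 was 0.991 in NK cells taken alone (10 samples), 1.09 in endothelial cells (9), 1.07 in alveolar macrophages (3) and 0.991 in microglia (3). Dendritic cells were below it, at 0.604 (19 samples, 0 above 1), as were plasmacytoid dendritic cells, at 0.580 (9 samples, 0 above 1), and group 2 innate lymphoid cells were at 0.839 (5 samples, 1 above 1). Macrophages spread widely, with a median ratio of 1.03 and a range from 0.607 to 12.6 over 25 samples. Nonclassical monocytes had a median ratio of 1.36 in S100a8 and 1.48 in S100a9, above 1 in 17 of 20 samples for each, with S100a8 ratios from 0.884 to 78.7. A level at or below that of lymphocytes was not read as expression, and empty droplets were not analysed here. Depth differed between the classes. In the samples numbered 1 the median cell held 7174.5 to 8246 UMIs in classical monocytes and 6829 to 11275 in dendritic cells. In lymphocytes it held 2189.5 to 3749. A like number of free UMIs is a lower CPM in a deeper cell, so a ratio under 1 does not show that a class lacks the transcript. Classical monocytes were above it in S100a8 in 23 of 23 samples, with a median ratio of 2.29. Their S100a9 was above it in 1 of 23 samples, with a median ratio of 0.654, so it was at or below the lymphocyte level in the other samples. The S100a8 share of both transcripts was 47.4% ± 3.0 in lymphocytes and 46.5% ± 3.1 in neutrophils of the same samples (SD, n = 32, mean difference 0.88 ± 2.72 percentage points). In monocytes it was higher than in neutrophils in 26 of 26 samples, by 21.0 ± 6.7 percentage points. These shares use summed UMIs, most of which in lymphocytes came from the small set of cells described next. The lymphocyte share therefore does not describe the median lymphocyte. Without the cells in the top 5% of doublet scores it was 46.8% ± 3.1 (SD, n = 32).

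**Figure D4:**
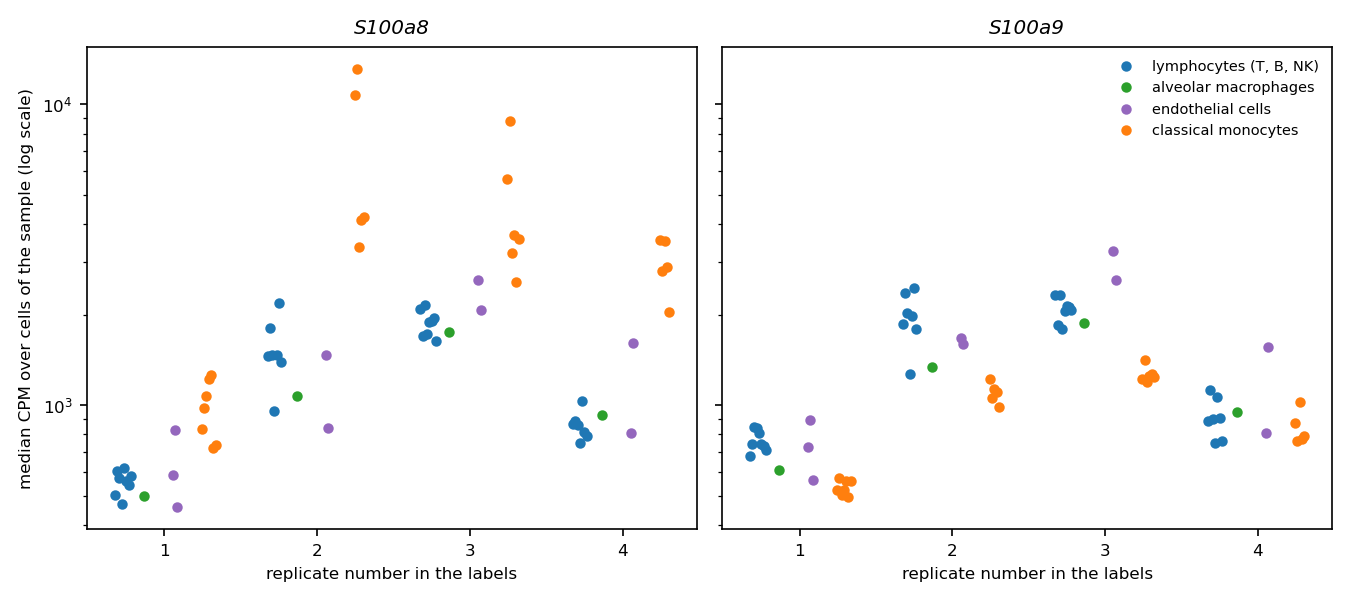
Median CPM over the cells of a sample (log axis) of S100a8 and S100a9 by sample number, for lymphocytes, alveolar macrophages, endothelial cells and classical monocytes; each point is a sample. Lymphocytes numbered 1 lie between 468 and 618 CPM of S100a8 and those numbered 3 between 1635 and 2151 CPM, and monocytes lie above lymphocytes for S100a8.

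A small set of lymphocytes carried most of the summed signal. In 274 of 11111 intracardiac lymphocytes (2.47%) S100a8 and S100a9 made up at least 5% of the UMIs, and these cells held 85.4% of all S100a8 and S100a9 UMIs of lymphocytes. Their median depth was 8481 UMIs against 2636 in the rest, and 77.7% of them were in the top 5% of doublet scores from Scrublet, against 3.07% of the rest. The counts given to Scrublet held the S100 genes, so its scores are not independent of how these cells were chosen. The B cell gene Cd79a was found in 93.9% of the 132 B cells among them and in 96.9% of the other B cells. The T cell gene Cd3e was found in 60.6% of the 142 T cells among them and in 75.7% of the other T cells, at median depths of 8408 and 3149 UMIs. By cluster, 127 of 293 cells of the B cell cluster 18 and 137 of 1821 cells of the Xcl1 and Ccl5 T cell cluster were in the set, and 0 of 1161 NK cells. Without them the S100a8 level summed over all intracardiac lymphocytes went from 7925 to 1231 CPM and that of S100a9 from 8762 to 1382 CPM. In iia bone 124 of 1720 lymphocytes (7.21%) were in the set and held 94.3% of these UMIs. Both sets were chosen by these UMIs, so the shares they held and the fall without them follow in part from that choice.

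**Figure D5:**
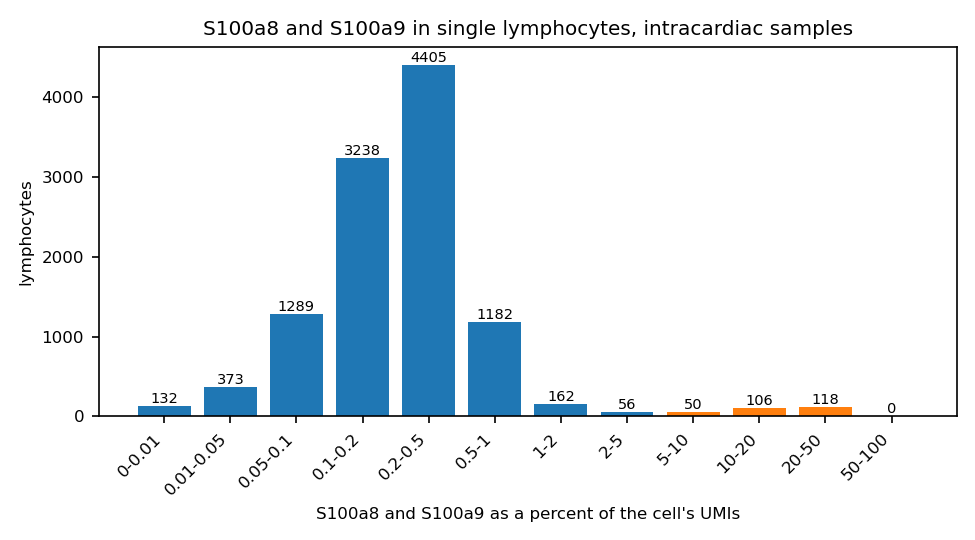
Number of intracardiac lymphocytes (bars, from 0) by the percent of their UMIs that are S100a8 or S100a9. Orange bars are the 274 cells at 5% or more.

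The tissue comparison of lymphocytes met this signal. S100a9 was 7993, 21677, 19914 and 14119 CPM in untagged bone and 4273, 8547, 3845 and 4401 CPM in untagged lung lymphocytes (+1.59 ± 0.32, adjusted p = 0.030 by edgeR), where 0.637% of genes were called. Of 8 other neutrophil genes 5 rose with it, among them Ngp (+3.28), Ltf (+2.99) and Lcn2 (+2.34). Without the cells in the top 5% of doublet scores S100a9 differed by +0.72 (adjusted p = 0.74 by edgeR). Leaving out any of 6 of the 8 samples also ended the call (all but bone replicate 1 and lung replicate 2). With the block S100a8 (+1.78, adjusted p = 0.0023), S100a4 (-1.13, adjusted p = 0.0043) and S100a10 (-0.54, adjusted p = 0.011) passed too, and 333 of 9420 genes were called. The Icos and Ctla4 T cell cluster, high in S100a4 and S100a10, made up 5.09% of untagged bone and 23.1% of untagged lung lymphocytes, and its part was not tested. Against brain and liver 0% of genes were called in each by edgeR, with 387 and 384 genes at an unadjusted p under 0.05. With the block, S100a4 was lower in lymphocytes of bone than of liver (-1.07, adjusted p = 0.026 by edgeR).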

How the data were processed

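Single-cell RNA sequencing measured mouse cells of 32 intracardiac samples and 12 iia hashtag samples. The deposited matrices hold raw UMI counts per gene and cell, made by the authors with Cell Ranger (6.1.2 for the intracardiac and 7.1.0 for the iia files, per the file headers), on build mm10 and with Seurat among the tools named in the submitters' processing notes. Intracardiac samples were demultiplexed by the authors. For iia bone, cells were assigned here from the deposited hashtag counts (at least 10 counts and 3 times the next tag), which gave 22685 of 26666 barcodes.

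A cell was kept if it had 500 or more UMIs, 200 or more genes and no more than 15% of UMIs from mitochondrial genes. Each experiment was clustered with scanpy 1.11.5 (2000 variable genes, 30 principal components, 15 neighbours, Leiden resolution 1) and clusters were named from marker lists, with naming thresholds set after seeing the data. Doublet scores came from Scrublet, and no cell was removed for them in the main results. The members and lists were chosen with earlier results of these data known. Every member is reported. Of the other lists (9 other S100 genes, 28 receptors and partners, 11 transcription factors and 8 neutrophil genes) up to 4 per comparison were named, by smallest adjusted p.

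Counts were summed per sample and class with at least 10 cells and tested with edgeR 4.0.16 (quasi-likelihood, TMM, filterByExpr, Benjamini-Hochberg over all genes, threshold 0.05, R 4.3.3) between the groups compared. The errors printed are SDs over samples or edgeR's standard errors, which hold the spread between samples. The fit was checked on simulated counts. Whether samples of the same number deviate together was checked by the correlation of their deviations from the group means over genes. Every number passed 0.1 in bone (0.45 to 0.74), brain (0.21 to 0.63), liver (0.26 to 0.50), untagged bone with liver (0.21 to 0.59) and untagged bone with lung (0.23 to 0.57). There the numbers pair the samples as a reading of the data, and a blocked value is printed where it changes a call.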

Additional observations from a re-analysis of the deposited data

Results flagged for a closer look

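Among 208 groups of 4 to 10 samples, 10 held a sample farther from the others than Dixon's 95% limit allows, and chance alone flags about 1 in 20 groups. In macrophages these were S100a4 in untagged brain replicate 1 (2567 CPM) and tagged iia replicate 1 (1744 CPM), and S100a6 (2491 CPM) and S100a10 (1021 CPM) in untagged liver replicate 1. In mature neutrophils they were S100a6 in untagged bone replicate 1 (6377 CPM), S100a10 in untagged liver replicate 3 (3.97 CPM) and S100a11 in untagged liver replicate 1 (4904 CPM). In all neutrophils they were S100a6 in tagged liver replicate 4 (9087 CPM) and S100a11 in tagged iia replicate 1 (3205 CPM). In classical monocytes S100a10 of untagged brain replicate 4 (1345 CPM) was apart.

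The S100a1 difference between tagged and untagged cells of lung stood apart from that of the other tissues, by 2.11 on the log2 scale in the interaction term of edgeR. It is described with the biotin sorts.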

How the results depend on the processing

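Depth limits single cells more than sums: the thinned share of lymphocytes with a UMI was 47.8% for S100a8 and 52.8% for S100a9 at 500 UMIs but 67.8% and 73.0% at 1000 UMIs. No member changed direction in a called result under any alternative run. Of the single-gene values under alternatives, 707 kept their side of the threshold, 45 lost and 46 gained a call. The alternatives chosen after seeing the data were leaving S100a8 and S100a9 out of the library size or the denominator, macrophages without alveolar macrophages and microglia, immature neutrophils alone, and lymphocytes without cells at 5% or more. The causes of the changes below were not tested, except that the narrower macrophage class and the left-out samples hold fewer cells or samples.

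The number of members called over all cells went from 1 to 2 in brain (DESeq2, replicate block) and from 2 to 1 in lung (without top Scrublet cells, 10% mitochondrial limit). In monocytes of iia it went from 0 to 1 (DESeq2) and 5 (no low-count filter). In macrophages it went from 0 to 4 in brain (DESeq2, no filter, block) or 1 (without top Scrublet cells, Leiden resolution 0.5), from 2 to 4 in iia and 0 to 1 in liver (no filter), and from 5 to 0 in lung (narrower class). In lymphocytes it went from 0 to 2 in iia and 0 to 1 in liver (no filter, block) and from 0 to 2 in lung (no filter). In iia neutrophils it went from 0 to 1 (DESeq2) and 2 (no filter, block, Leiden 0.5), and in iia mature neutrophils from 0 to 1 (no filter, Leiden 0.5) and 2 (block). For bone against liver it went from 0 to 3 (DESeq2), 2 (no filter) and 1 (block) in lymphocytes, from 0 to 1 in mature and 0 to 4 in all neutrophils (block). For bone against lung lymphocytes it went from 1 to 3 (DESeq2, no filter), 4 (block) and 2 (library size without S100a8 and S100a9, 10% mitochondrial limit). The immature to mature step was -0.83 for S100a8, -0.75 for S100a9 and 0.77 for S100a11 with both left out of the denominator, and 0.68 for S100a11 at Leiden 0.5. With 1 sample left out the members called ranged from 0 to 1 (all cells, brain), 1 to 2 (all cells, lung), 2 to 4 (iia macrophages), 1 to 5 (lung macrophages), 0 to 3 (iia neutrophils), 0 to 2 (bone against lung lymphocytes) and 0 to 1 (bone against liver neutrophils).

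The replicate block raised 0 to 3 members in mature neutrophils of brain. In lung, iia and untagged bone with brain the samples share only a number, since 1 or more correlations were at or under 0.1 (-0.09 in lung replicate 3, 0.078 in iia replicate 3, -0.01 and 0.03 in bone with brain), and the block changed no other member count than those given.

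Counts of all genes called varied more. From 0 in edgeR they reached 53 and 431 over all cells of bone and liver (DESeq2), 50, 108, 44, 114 and 75 in lymphocytes of bone, brain, iia, liver and lung, 21 and 336 in macrophages of bone and liver, 12 and 34 in monocytes of bone and liver (all without the filter), and with the block 7 in monocytes of lung, 31, 53, 3 and 72 in mature neutrophils and 217, 3 and 76 in neutrophils of brain, liver and lung. All cells of brain went from 339 to 1225 (DESeq2), macrophages of brain from 1 to 345 (block) and of lung from 1015 to 1 (narrower class) or 1749 (block), monocytes of iia from 6 to 3 or 234, mature iia neutrophils from 510 to 975 and iia neutrophils from 771 to 0 (immature alone). The differences between tissues went from 0 to 13 in bone, 42 to 15 or 142 in brain, 0 to 1 in liver and 355 to 184 or 857 in lung. Bone against brain, liver and lung went from 0, 2 and 31 to 26, 68 and 568 in monocytes, from 0, 0 and 60 to 18, 16 and 333 in lymphocytes, and from 13, 77 and 295 to 138, 375 and 906 in mature neutrophils. In all neutrophils bone against brain went from 14 to 85 and against liver from 551 to 2111.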

Other observations

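The 6 tagged iia bone samples fell into separate levels of S100a4 and S100a10, which were not called different from untagged cells. Over all cells S100a4 was 535, 770 and 861 CPM in tagged samples 1 to 3 and 65.6, 58.1 and 94.2 CPM in samples 4 to 6. S100a10 was 266, 544 and 490 CPM in the former and 61.4, 55.5 and 63.8 CPM in the latter. Macrophages, which hold much of both genes, made up 13%, 51.8% and 35.8% of the cells in samples 1 to 3 and 3.61%, 4.72% and 4.87% in samples 4 to 6. The labels put all 6 in 1 group, and nothing in them separates these samples.

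Stromal cells of iia bone held 11329 ± 1964 CPM of S100a6 and 1445 ± 809 CPM of S100a4 (mean ± SD, n = 9).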
